A study of Rattus norvegicus with 20 samples.

Results

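The arcuate nuclei of PMX53-treated female rats with triggered spasms (BYP) were compared with those of female rats without spasms (BNS), 4 samples in each group, 8 of the 20 samples of the series. All 8 were Sprague-Dawley females of postnatal day 15 whose mothers had received betamethasone, a synthetic glucocorticoid, at 0.4 mg/kg per injection on gestational day 15. In BYP, spasms were triggered by repeated NMDA (N-methyl-D-aspartate, an agonist of ionotropic glutamate receptors), the last time on the day of tissue collection, and the rats were treated with PMX53, a cyclic hexapeptide that blocks the complement receptor C5ar1. BNS rats were given saline in place of NMDA and saline in place of PMX53. The comparison therefore spans NMDA with its spasms and PMX53 together, which cannot be told apart within it. The remaining groups were SNS (saline before birth, no spasms, saline), BYS (betamethasone, spasms, saline) and BYA (betamethasone, spasms, ACTH), and their levels are given beside the results for orientation only.

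The arcuate nucleus lies at the base of the hypothalamus and holds the AgRP/NPY and POMC neurons that set food intake, together with neurons that control the pituitary. Strong activity of neurons switches on immediate early genes such as Fos and Arc. Damage or cytokine signalling switches on NF-kB, a transcription factor held in the cytoplasm by inhibitors of the Nfkbia family, and its targets include chemokines, adhesion molecules and these inhibitors themselves. Glucocorticoids bind the receptor Nr3c1 and switch on another set of genes, among them Fkbp5 and Klf9. C5a, a fragment of complement C5, acts on myeloid cells through C5ar1.

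Levels are log2 intensities of single channels of 2-colour arrays after quantile normalization, and a level of 1 gene cannot be set against that of another. Within each group, replicates 1 and 2 shared one array and replicates 3 and 4 the other, with Cy3 in replicates 1 and 3 and Cy5 in replicates 2 and 4. BYP and BNS lay on different slides, so slide and condition cannot be told apart. Samples of a shared array differed by a median of 0.309 (root mean square over genes, log2; 4 pairs), those of the same group on different arrays by 0.366 (8 pairs), and BYP samples from BNS samples by 0.399 (16 pairs). The ratio of signal to local background was from 14.1 to 19.9 in the BNS samples and from 7.07 to 10.9 in the BYP samples, so dim genes were measured less well in BYP. In 18.7% of the genes at least 1 BYP sample was not well above background, against 9.76% for BNS. The tissue markers Pomc, Agrp, Npy, Cartpt, Tac3, Ghrh and Th were well above background in all 8 samples. The p-values below measure only the spread between samples within groups, which was estimated over all 20 samples of the series and not the 8 alone. Litters had been culled to 4 females, and litter was not given per sample.

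With the array as a random block, limma called 15 of 17086 genes at an adjusted p under 0.05 (0.0878%), 4 higher (0.0234%) and 11 lower (0.0644%) in BYP. Without the block, which takes the channels of an array as independent, it called 257 (1.5%), 111 higher (0.65%) and 146 lower (0.855%), including all 15. In 251 of the 257 the 4 BYP values lay all above or all below the 4 BNS values. Over all genes, 6.33% lay all above and 6.99% all below. The 257 were called on these same values, so their separation adds no support to the calls. At an unadjusted p under 0.05 with the block, 894 genes were higher and 894 lower (5.23% each). Differences are counted as called with the array block or called without it, and both adjusted p-values are limma's. Among the genes called without the block, rises were larger than falls. In BYP, 34 genes were more than 2-fold higher and 5 more than 2-fold lower, with the median rise at 0.76 and the median fall at -0.53 (log2). Of the 146 lower genes, 89 (61%) were not well above background in at least 1 BYP sample, against 1 of the 111 that were higher. Brightness in BYP follows in part from the direction of the call. In at least 1 BNS sample it was 2 of the 146 and 11 of the 111. The median level in BNS was 8.62 for the lower genes, 9.72 for the higher ones and 9.72 over all genes, so the lower genes were also dim there. Scaling the channels to a common median or a common 75th percentile, in place of quantile normalization, left no call by limma in either fit, with 237 and 337 genes at an unadjusted p under 0.05 with the block and 768 and 1025 without it.

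**Figure D1:**
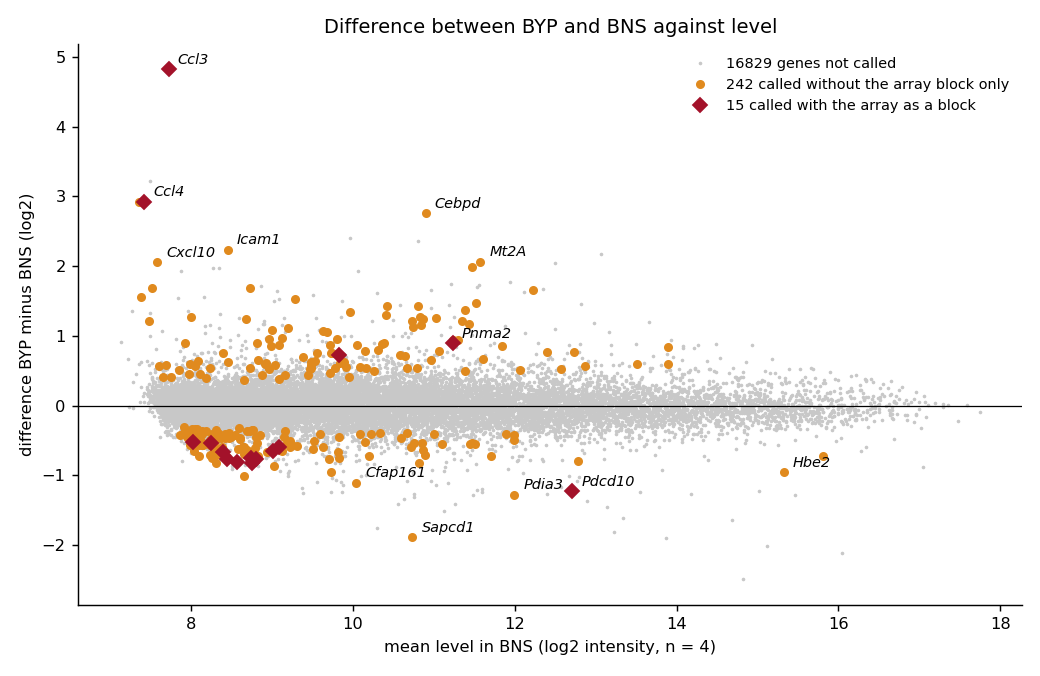
Difference between BYP and BNS (log2, y axis) against the mean level in BNS (log2 intensity, n = 4, x axis) for each gene. Diamonds are the 15 genes called with the array as a block, orange points those called without it only, and grey points the rest. Ccl3 stands highest, at 4.82, Ccl4 lies at 2.92, and many of the lower genes lie at the dim end.

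The largest difference of all genes tested was that of Ccl3, a chemokine that draws monocytes and other leukocytes and is made by activated microglia. Its level was 7.76, 7.66, 7.71 and 7.77 in BNS and 12.48, 12.70, 13.37 and 11.63 in BYP, so the groups lay far apart. Ccl3 rose by 4.82 ± 0.85 (log2, SE), or 28.3-fold (adjusted p = 0.0306 with the array block and 0.00698 without it). In 2 of the 4 BNS samples it was not well above background. Ccl4, a chemokine encoded next to it on chromosome 10, was measured at 7.44, 7.36, 7.46 and 7.41 in BNS and 10.38, 10.50, 10.82 and 9.68 in BYP. None of the BNS samples was well above background, so that Ccl4 was at least 7.59-fold higher in BYP (adjusted p = 0.0306 with the block and 0.00569 without). Ccl4 entered the test only because all 4 BYP samples were well above background, so its p-value is not independent of that filter, and the same holds for Il1b, Ccl2, Fosl1, Olr1 and Sele below. Both chemokines were also high in other rats with spasms. For Ccl3, the 4 BYA samples were at 11.90, 10.97, 9.99 and 12.47, and the BYS samples at 7.79, 7.91, 12.04 and 12.08. BYS replicates 1 and 2, which shared an array, thus had Ccl3 close to the BNS level, and the SNS samples lay at 7.78, 7.81, 7.43 and 7.62.

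The oligonucleotides behind the 3 called genes whose probes are quoted here are given in full because the calls rest on them alone, 1 probe per gene, in lower case throughout since the whole stretch hybridizes. Positions are those of the array design on rn4, at chr10:71760265-71760324 (plus strand) for Ccl4, chr15:46458677-46458736 (plus strand) for Pnma2 and chr5:150979864-150979923 (minus strand) for Oprd1.
Ccl4: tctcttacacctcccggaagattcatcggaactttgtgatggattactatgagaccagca
Pnma2: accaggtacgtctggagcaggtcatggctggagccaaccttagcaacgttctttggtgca
Oprd1: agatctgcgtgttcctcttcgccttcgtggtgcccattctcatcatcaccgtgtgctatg

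Cytokine, chemokine and NF-kB genes were higher in BYP as a list. Of 42 tested, 2 were called with the array block (Ccl3 and Ccl4) and 8 without it, all higher. In 16 of the 42 the BYP values lay all above the BNS values, against 6.33% of all genes, and none lay all below. Ccl4, Il1b and Ccl2, all among the 16, entered the test only because all 4 BYP samples were well above background. Ccl4 and Il1b are also among the 8, so these counts are not independent of the filter. The share called higher without the block was 0.65% of all genes. The median difference was 0.28, against 0.00 over all genes. The mean level of the list was from 9.24 to 9.30 in the BNS samples and from 9.75 to 10.03 in the BYP samples.

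Cxcl10, an interferon- and NF-kB-responsive chemokine for T cells, was at 7.67, 7.66, 7.24 and 7.76 in BNS and 8.85, 9.99, 11.11 and 8.60 in BYP. It was 4.16-fold higher (adjusted p = 0.176 with the block and 0.0187 without), and 2 of the BNS samples were not well above background. Il1b, the inflammatory cytokine interleukin 1 beta, went from 7.49, 7.49, 7.44 and 7.51 to 8.44, 9.01, 9.05 and 8.31, a 2.33-fold difference (adjusted p = 0.184 and 0.0385), and it too was not well above background in 2 of the BNS samples. For both genes the groups did not overlap, although the BYP values were spread more widely than those of BNS. Csf1, the growth factor on which microglia and macrophages depend, was 1.94-fold higher (adjusted p = 0.178 and 0.0212).

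The inhibitors of NF-kB moved in the same direction. Nfkbia, the inhibitor that NF-kB itself induces, was at 9.83, 9.92, 10.03 and 10.06 in BNS and 11.64, 11.64, 11.60 and 10.33 in BYP, 2.53-fold higher (adjusted p = 0.155 with the block and 0.0211 without). BYP replicate 4 stood well below the other 3 BYP samples but above each BNS sample. Nfkbib and Nfkbie, further members of this inhibitor family, were 1.39-fold and 1.69-fold higher (adjusted p = 0.046 and 0.0385 without the block, 0.199 and 0.185 with it). Nfkbie was the exception among the 8 in that its groups overlapped, with BNS replicate 1 and BYP replicate 4 both at 8.90. Among list members chosen after their values were seen, the monocyte chemokine Ccl2 was at 7.48, 7.45, 7.40 and 7.63 in BNS and at 11.01, 10.30, 12.04 and 9.51 in BYP, and it was not called (adjusted p = 0.232 with the block and 0.0596 without). It was well above background in 1 of the 4 BNS samples, so the size of its difference (3.23 as measured) is uncertain. Tnf, tumor necrosis factor, differed by 1.56 without overlap and was not called either (adjusted p = 0.268 and 0.0825).

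Promoter windows are shown for Nfkbia and Cxcl10, which hold the NF-kB consensus GGGRNWYYCC on either strand within 250 bases before the start of the gene. In it R is A or G, W is A or T, Y is C or T and N is any base. Of the other higher genes whose windows were read one by one, Icam1, Sele, Fosl1 and Il1b held no exact match. The Icam1 window holds tggaaattcc, which departs from the consensus only at its first base. Sites that depart from the consensus were not counted. The windows are from RefSeq on GRCr8, written 5′ to 3′ along the gene's strand, with the consensus in capitals. They lie at chr6:78597073-78597322 (minus strand) for Nfkbia and at chr14:15988816-15989065 (plus strand) for Cxcl10. The match begins 31 bases before the start in Nfkbia and 187 bases before it in Cxcl10.
Nfkbia: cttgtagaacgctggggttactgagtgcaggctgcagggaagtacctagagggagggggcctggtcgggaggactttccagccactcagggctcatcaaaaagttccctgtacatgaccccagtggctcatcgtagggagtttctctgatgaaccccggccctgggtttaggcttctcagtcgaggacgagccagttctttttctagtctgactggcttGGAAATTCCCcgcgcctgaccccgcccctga
Cxcl10: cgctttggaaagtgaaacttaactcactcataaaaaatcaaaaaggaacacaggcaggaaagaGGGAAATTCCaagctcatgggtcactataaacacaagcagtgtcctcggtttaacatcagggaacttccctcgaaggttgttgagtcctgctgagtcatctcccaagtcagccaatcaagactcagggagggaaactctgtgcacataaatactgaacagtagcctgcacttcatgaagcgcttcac

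On either strand, the NF-kB consensus was held by 1185 of 33469 promoter windows in the table (3.54%) and by the windows of 472 of 10552 tested genes that could be matched by symbol (4.47%). Of the 111 genes called higher without the block, 60 matched, and 6 of these held it (10%), namely Chmp5, Cxcl10, Irf1, Nfkbia, Nfkbie and Upp1. Of the 146 called lower, 80 matched and 2 held it (2.5%). The AP-1 motif TGANTCA, the binding site of Fos and Jun family factors, was held by 7 of the 60 (11.7%) and 9 of the 80 (11.2%), against 4.91% of the tested genes that matched. The cyclic AMP response element TGACGTCA was held by 4 of the 60 (6.67%), which were Cdkn2b, Crem, Eef2 and Ier2, and by 1 of the 80 (1.25%), against 2.9%. These are matches of letters in a short window and show no binding.

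Icam1 and Cebpd were among the largest rises called without the block. Icam1, the adhesion molecule on activated endothelium to which leukocytes bind, was at 8.48, 8.27, 8.39 and 8.68 in BNS and 10.40, 10.60, 11.76 and 10.01 in BYP, 4.72-fold higher (adjusted p = 0.108 with the block and 0.0218 without). Cebpd, a transcription factor of the acute-phase response, was at 10.88, 10.79, 11.07 and 10.85 against 13.77, 13.33, 14.72 and 12.84, a 6.79-fold difference (adjusted p = 0.108 and 0.0218). BYP replicate 3 was the highest and BYP replicate 4 the lowest BYP sample in both. Of the 27 markers of endothelium, pericytes and meninges tested, none was called in either fit, none reached an unadjusted p under 0.05 with the block, and the median difference was 0.02. At that p, 5.23% of all genes were higher and 5.23% lower. Sele, Olr1, Gpr84 and Irf1 were picked out after their values were seen. Sele, the endothelial selectin, was well above background in no BNS sample and in all 4 BYP samples and was at least 2.93-fold higher (adjusted p = 0.243 with the block and 0.0425 without). Olr1, whose accession is that of the lectin-like receptor for oxidized LDL and not of an olfactory receptor, was 3.22-fold higher (adjusted p = 0.155 and 0.0444), with 2 of the BNS samples not well above background. Gpr84, a receptor of activated microglia and macrophages, was 2.17-fold higher (adjusted p = 0.0828 with the block and 0.0216 without). Irf1, an interferon-response transcription factor, was 1.81-fold higher (adjusted p = 0.251 with the block and 0.0475 without).

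**Figure D2:**
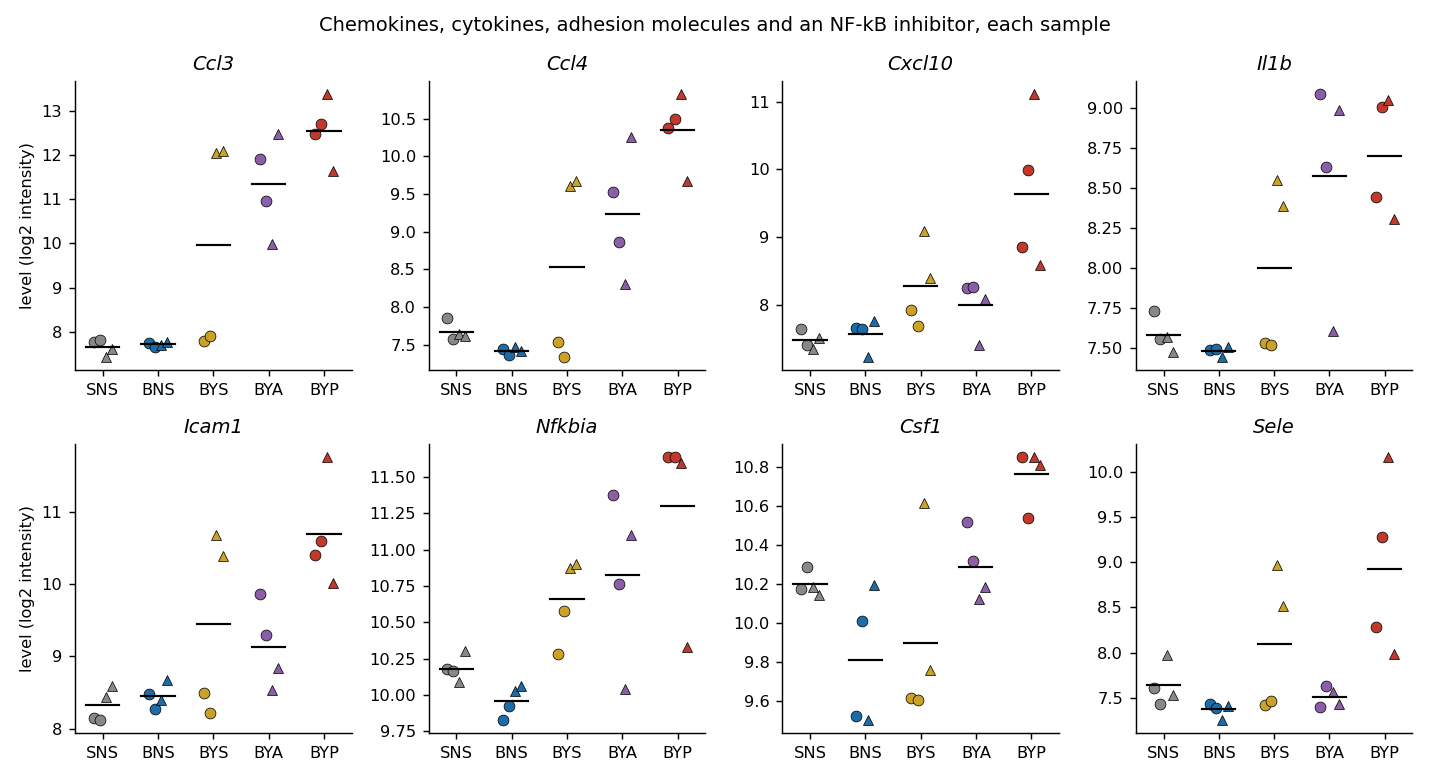
Levels (log2 intensity, y axes, each with its own range) of 8 genes in each sample of the 5 groups, with bars at the group means of up to 4 samples. Circles are replicates 1 and 2 and triangles replicates 3 and 4; each pair shared an array except BYA replicates 3 and 4, which lay on separate ones. The 4 BYP samples lie above the 4 BNS samples in each panel, and for Ccl3 the circles of BYS lie near 7.8 and its triangles near 12.

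Immediate early genes formed the list with the largest median difference among the lists fixed in the design, at 0.54 over 33 genes. None was called with the array block, where 16 were higher and none lower at an unadjusted p under 0.05. Over all genes, 5.23% were higher and 5.23% lower at that p. Without it 5 were called, all higher (0.65% of all genes were), and in 16 of the 33 the BYP values lay all above the BNS values, against 6.33% of all genes. Fosl1, which is in both counts, entered the test only because all 4 BYP samples were well above background. The mean level of the list was from 9.40 to 9.56 in BNS, from 9.98 to 10.33 in BYP, from 9.55 to 10.26 in BYS and from 9.44 to 10.35 in BYA.

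Fosl1, which codes for the AP-1 subunit Fra-1, was at 7.17, 7.41, 7.44 and 7.40 in BNS, never well above background, and at 9.88, 9.46, 11.61 and 10.16 in BYP. It was at least 7.59-fold higher (adjusted p = 0.108 with the block and 0.031 without). Gadd45b, a stress- and activity-induced gene, was 3.23-fold higher (adjusted p = 0.178 and 0.0473). Ier2, an early gene of the serum response, went from 10.64, 10.75, 10.74 and 10.84 to 11.93, 11.98, 12.21 and 11.35, a 2.18-fold difference (adjusted p = 0.176 and 0.0364). Arc, which codes for a synaptic protein that follows neuronal activity, was at 9.73, 9.49, 9.36 and 9.94 in BNS and at 10.89, 10.86, 10.45 and 10.61 in BYP, 2.10-fold higher (adjusted p = 0.209 and 0.0473). Crem, a modulator of cyclic AMP-driven transcription, was 1.58-fold higher (adjusted p = 0.178 and 0.028). Neither group overlapped the other in any of these 5 genes. Fos itself, picked out after its values were seen, was at 8.63, 8.79, 8.65 and 9.41 in BNS and 10.89, 10.51, 10.60 and 10.33 in BYP and was not called (adjusted p = 0.21 with the block and 0.0586 without). The related genes Atf3, Junb and Egr4, also picked out after their values were seen, differed by 1.93, 1.65 and 1.5 without overlap and were not called in either fit.

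Glucocorticoid-response genes were higher as well, although the rats of both groups had been exposed to betamethasone before birth. None of 29 was called with the array block, where 9 were higher and 2 lower at an unadjusted p under 0.05, and 6 were called without it, all higher. In 9 the BYP values lay all above the BNS values. Over all genes, 0.65% were called higher without the block and 6.33% lay all above. At the unadjusted p, 5.23% of all genes were higher and 5.23% lower. The median difference of the list was 0.30. Fkbp5, a co-chaperone of the glucocorticoid receptor and one of its direct targets, was at 10.95, 11.001, 11.03 and 11.13 in BNS and at 12.16, 12.04, 12.57 and 12.39 in BYP, 2.40-fold higher (adjusted p = 0.0861 with the block and 0.0167 without). Klf9, a further direct target, went from 11.63, 11.03, 11.04 and 11.23 to 12.49, 12.36, 11.86 and 11.98, a 1.92-fold difference (adjusted p = 0.086 and 0.0102). The groups were separate for both.

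The remaining members called were Mt2A, Angptl4, Cdkn1a and Nfkbia, which respond to other signals too. Mt2A, a metal-binding metallothionein, was at 11.04, 11.28, 12.36 and 11.62 in BNS and 13.29, 13.29, 14.13 and 13.85 in BYP, 4.18-fold higher (adjusted p = 0.0927 with the block and 0.0235 without), and its 2 probes differed by 2.14 and 1.99. Angptl4, an inhibitor of lipoprotein lipase, was 3.98-fold higher (adjusted p = 0.11 and 0.0197). Cdkn1a, the cell cycle inhibitor p21, was at 10.77, 10.62, 10.85 and 10.95 against 12.37, 12.25, 12.27 and 12.05, 2.70-fold higher (adjusted p = 0.0927 and 0.0246). Outside the list, Srxn1, an antioxidant enzyme that restores peroxiredoxins, was at 11.63, 11.17, 11.24 and 11.49 in BNS and 12.86, 12.61, 12.84 and 12.71 in BYP, a 2.59-fold difference with separate groups (adjusted p = 0.0833 and 0.0145).

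**Figure D3:**
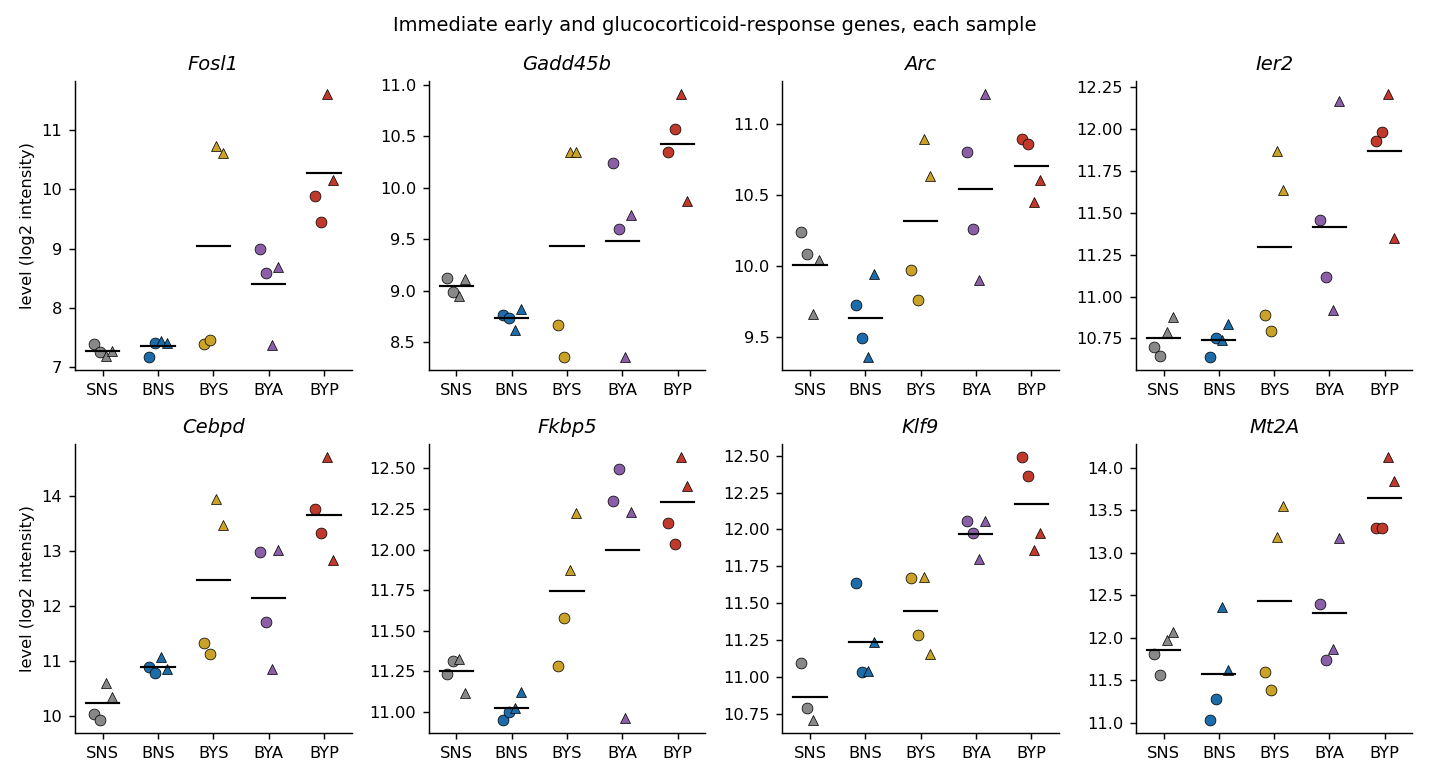
Levels (log2 intensity, y axes) of 8 immediate early, acute-phase and glucocorticoid-response genes in each sample, drawn as in the plot of the chemokine genes. BYP lies above BNS in each panel, with Fkbp5 from 12.04 to 12.57 in BYP against 10.95 to 11.13 in BNS, while BYS and BYA samples spread widely.

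Markers of glia differed in part. The astrocyte list had a mean level from 11.13 to 11.18 in BNS and from 11.53 to 11.79 in BYP, and in 11 of its 28 genes the BYP values lay all above the BNS values (6.33% of all genes did), but only Cxcl10, which it shares with the cytokine list, was called, without the block. The glial and complement genes named here and in the next paragraph, other than Cxcl10 and C5ar1, were picked out after their values were seen. Gfap, the intermediate filament of astrocytes, was at 8.87, 8.74, 9.15 and 8.92 in BNS and 9.79, 9.25, 10.73 and 9.79 in BYP (adjusted p = 0.299 with the block and 0.102 without). Of the reactive astrocyte genes, Lcn2 differed by 1.17, Timp1 by 1.27 and Hspb1 by 1.00, none of them called. The microglia list had a mean level from 10.05 to 10.19 in BNS and from 9.97 to 10.36 in BYP, and none of its 26 genes was called in either fit, where with the block an unadjusted p under 0.05 was reached by 4 that were higher and 2 that were lower. Over all genes, 5.23% were higher and 5.23% lower at that p. Within the microglia list, 4 genes lay all above, the C1q chains and Itgam, and 1 all below, against 6.33% and 6.99% of all genes. The latter was Gpr34, at 11.36, 11.21, 10.83 and 11.31 in BNS against 9.89, 9.81, 9.76 and 10.80 in BYP. In bulk tissue, a change in the number of cells and a change in RNA per cell cannot be told apart.

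Of the 25 complement genes measured, none was called in either fit, the lowest adjusted p with the block being 0.248, and 6 were higher and 1 lower at an unadjusted p under 0.05. At that p, 5.23% of all genes were higher and 5.23% lower. The median difference of the complement genes was 0.14. Of them, 7 lay all above (C1qa, C1qb, C1qc, C1r, C1s, C3 and Itgam) and 2 all below (Cfi and Cr1l), against 6.33% and 6.99% of all genes. C3, the central component, was at 8.16, 8.43, 8.30 and 8.55 in BNS and 8.89, 9.04, 9.63 and 9.81 in BYP (adjusted p = 0.248 with the block and 0.0712 without). C1qb, a chain of the first component, differed by 0.74 (adjusted p = 0.301 and 0.0773). C5ar1, the receptor that PMX53 blocks, was near the lower limit of measurement, at 7.80, 7.63, 7.62 and 7.73 in BNS and 7.74, 7.80, 7.79 and 8.00 in BYP, and well above background in 2 samples of each group. It differed by 0.14 ± 0.17 (adjusted p = 0.837 with the block and 0.628 without), with overlapping groups.

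Pnma2, a gene expressed in neurons and the source of a paraneoplastic antigen, rose with the array block (adjusted p = 0.0239, and 0.000889 without). It was at 11.06, 11.44, 11.07 and 11.38 in BNS and 12.07, 12.31, 12.05 and 12.09 in BYP, 1.86-fold higher. The SNS samples, at 12.35, 12.46, 12.65 and 12.60, and those of BYS and BYA, from 11.85 to 12.29, also lay above each BNS sample, so BNS was the group that stood apart. The fourth gene called higher with the block had no gene symbol.

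Of the 11 genes called lower with the block, 8 had a gene symbol. Pdcd10, which stabilizes endothelial junctions and is mutated in cerebral cavernous malformations, was at 12.84, 12.74, 12.57 and 12.69 in BNS and 12.19, 11.61, 10.86 and 11.27 in BYP. It fell by 1.23 on the log2 scale, or 2.34-fold (adjusted p = 0.0489 with the block and 0.00569 without), and in the SNS, BYS and BYA samples it lay between 11.88 and 12.83. Klhl30, a kelch-family protein, was at 9.03, 9.10, 9.14 and 9.06 against 8.44, 8.52, 8.43 and 8.58 and fell 1.5-fold (adjusted p = 0.0306 and 0.00108). The SNS samples, from 8.31 to 8.51, the BYS samples, from 8.44 to 8.67, and the BYA samples, from 8.80 to 8.98, also lay below each BNS sample for Klhl30. BNS was thus the group that stood apart for Klhl30. Pdcd10 and Klhl30 were well above background in all 8 samples, and in neither did BYP and BNS overlap.

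The other 6 were dim, well above background in all 4 BNS samples but in at most 2 of the 4 BYP samples. Dgat2l6, of the acyltransferase family that makes neutral lipids, was at 8.50, 8.60, 8.47 and 8.71 in BNS and 7.61, 7.97, 7.54 and 7.95 in BYP (1.75-fold lower, adjusted p = 0.00597 with the block). It lay from 7.57 to 8.01 in SNS, from 8.15 to 8.62 in BYS and from 8.02 to 8.29 in BYA. Dffb, the DNase that fragments chromatin in apoptosis, was at 8.68, 8.77, 8.72 and 8.87 against 7.86, 8.07, 7.62 and 8.16 (1.78-fold lower, adjusted p = 0.0119). Oprd1, the delta opioid receptor, was at 8.56, 8.74, 8.83 and 8.81 against 7.70, 8.28, 7.83 and 8.14 (1.68-fold lower, adjusted p = 0.0306). For Oprd1 the SNS, BYS and BYA samples, at most 8.44, 8.55 and 8.44, also lay below each BNS sample, so BNS stood apart. BYP and BNS were separate in Dgat2l6, Dffb and Oprd1, but the differences depended on the scaling. With the channels scaled to a common 75th percentile they were -0.23 for Dgat2l6, -0.32 for Dffb and -0.21 for Oprd1. Il17b, Fbxl7 and Fmo6 were 1.58-fold, 1.45-fold and 1.43-fold lower. For Il17b the SNS, BYS and BYA samples also lay below each BNS sample. Under the same scaling the differences of Il17b, Fbxl7 and Fmo6 were -0.08, 0.04 and 0.14. The lower ratio of signal to background in BYP moved with these differences, and its part in them was not tested. Fmo6 entered the test only because all 4 BNS samples were well above background, so its p-value is not independent of that filter.

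Brighter genes that were lower in BYP without the block included some with values that varied widely among the BYP samples. Pdia3, a disulfide isomerase of the endoplasmic reticulum, was at 12.12, 11.97, 11.91 and 11.97 in BNS, at 10.03 and 10.14 on one BYP array and at 11.36 and 11.35 on the other (2.42-fold lower, adjusted p = 0.108 with the block and 0.0285 without). Sapcd1, picked out after its values were seen, was at 10.77, 10.68, 10.78 and 10.72 in BNS and at 6.93, 8.19, 10.18 and 10.09 in BYP (adjusted p = 0.169 and 0.0475). For both, replicates 1 and 2 of BYP lay far below replicates 3 and 4. Lsm14a, a protein of RNA processing bodies, was 1.68-fold lower (adjusted p = 0.0465 without the block and 0.24 with it), with its 2 probes at -0.31 and -1.19. The probe at -1.19 was well above background in only 2 of the 4 BYP samples, the other in all 4. Mcf2l, a guanine nucleotide exchange factor, was dimmer, with a mean level of 8.83 in BNS. It was 1.65-fold lower as the average of 3 probes that disagreed, at -1.50, -0.80 and 0.13 (adjusted p = 0.00569 without the block and 0.082 with it), and its difference was -0.21 under 75th percentile scaling. The probe at 0.13 was well above background in all 4 BYP samples, that at -1.50 in 3 and that at -0.80 in 2.

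Genes of cilia were lower in BYP, a family singled out after its values were seen. Of 106 tested, none was called with the array block. Without it 10 were called, all lower, where 0.855% of all genes were. In 22 the BYP values lay all below the BNS values and in 1 all above, against 6.99% and 6.33% of all genes. The mean level of the list was from 10.02 to 10.45 in BNS and from 9.86 to 10.05 in BYP, so the groups overlapped. The median difference was -0.23, and it was -0.20 and -0.10 under median and 75th percentile scaling. Cfap161, a protein of the ciliary axoneme, was at 9.77, 9.95, 10.57 and 9.88 in BNS and 8.85, 7.98, 9.65 and 9.27 in BYP (2.15-fold lower, adjusted p = 0.178 with the block and 0.0382 without). Cfap52 was at 11.58, 11.56, 12.08 and 11.63 against 11.002, 10.85, 11.001 and 11.09 (1.65-fold lower, adjusted p = 0.153 and 0.0162). The groups were separate in both.

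Others called without the block were Lrrc34 and Cfap141, the intraflagellar transport genes Ift22, Ift56, Ift70b and Ift74, which carry cargo along the axoneme, Cfap20, and Ccno, which drives the formation of multiple basal bodies. Their adjusted p-values without the block were from 0.00699 to 0.0475. Motile cilia in this region are carried by the ependyma that lines the ventricle. Of the 24 markers of ependyma and tanycytes, none was called in either fit, the median difference was -0.17, and the mean levels of the list overlapped between the groups. With the block, 1 of them reached an unadjusted p under 0.05, as lower, where 5.23% of all genes did.

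Of 8 hemoglobin chains tested, a list chosen after its values were seen, 2 were called lower without the block and none with it, and 6 lay all below and 1 all above. Among all genes, 0.855% were called lower without the block, 6.99% lay all below and 6.33% all above. Hbe2, an epsilon chain, was at 15.45, 15.00, 15.47 and 15.37 in BNS and 14.22, 14.29, 14.45 and 14.53 in BYP, 1.94-fold lower (adjusted p = 0.178 with the block and 0.0317 without). Hba-a1, an alpha chain, was at 15.84, 15.49, 16.04 and 15.86 against 14.98, 15.15, 15.00 and 15.18, 1.66-fold lower (adjusted p = 0.137 and 0.0187), with its 2 probes at -0.35 and -1.11. Of the 10 red blood cell markers, 6 lay all below, against 6.99% of all genes, and none was called, the median difference was -0.46, and their mean level was from 10.86 to 11.42 in BNS and from 10.57 to 10.75 in BYP. The red cell list shares Hbb, a hemoglobin chain, with the hemoglobin list, so its mean level is not independent of these differences. Whether the amount of red cells had a part in them was not tested. Hbe2 was lower still in SNS, from 12.68 to 13.59.

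**Figure D4:**
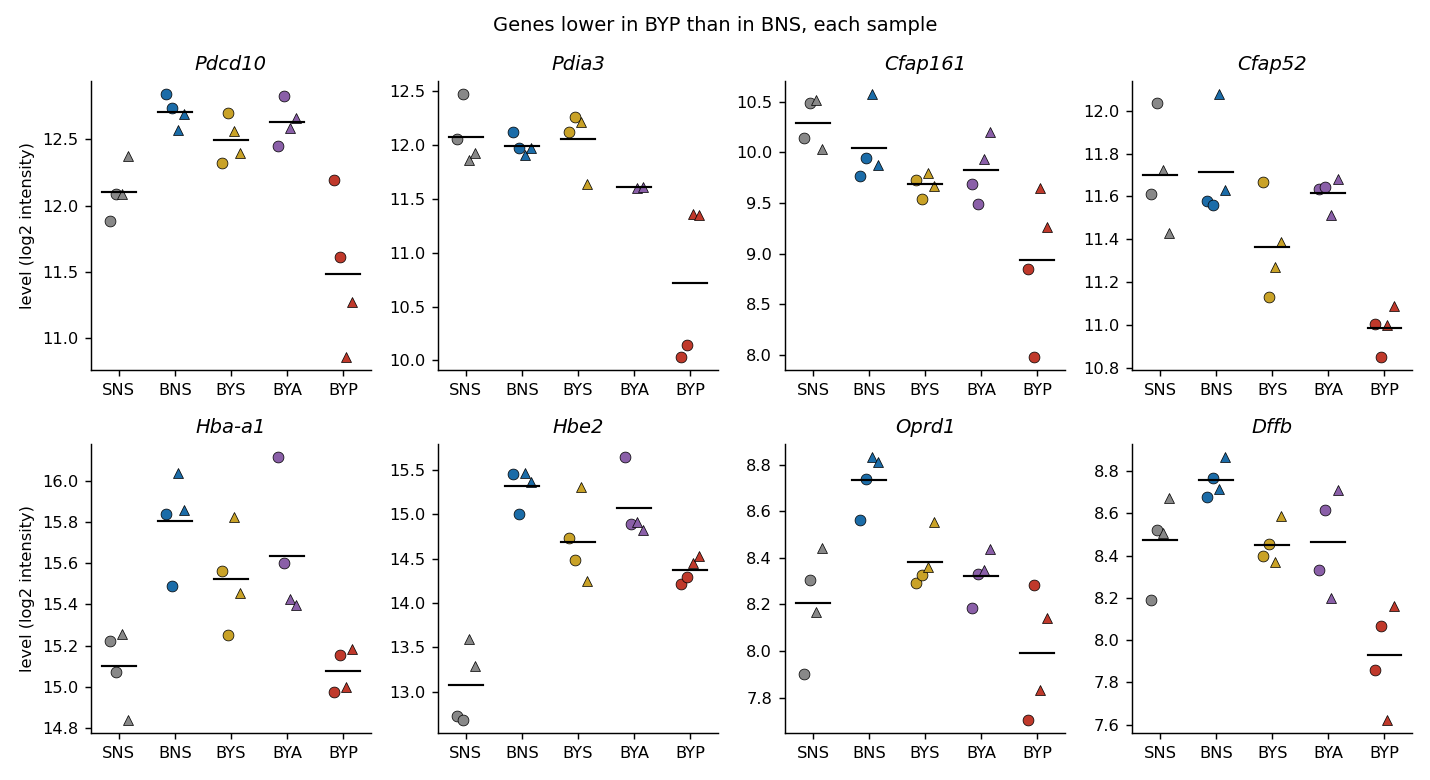
Levels (log2 intensity, y axes) of 8 genes that were lower in BYP than in BNS, in each sample, drawn as in the plot of the chemokine genes. The BYP samples lie below the BNS samples in each panel; Pdia3 splits by BYP array, and Oprd1 and Dffb lie between 7.6 and 8.9 throughout.

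None of the genes for GABA (44), glutamate (49), acetylcholine (17) or dopamine and serotonin synapses (22) was called in either fit, with median differences of 0.10, 0.11, 0.08 and 0.02. Of 49 genes of vesicle release, Pclo, a scaffold of the presynaptic active zone, was 1.53-fold higher and Cplx3, a complexin that clamps vesicle fusion, was 1.45-fold lower (adjusted p = 0.029 and 0.0145 without the block, 0.185 and 0.11 with it), where 1.5% of all genes were called without the block. For Cplx3 the SNS, BYS and BYA samples, at most 8.44, 8.51 and 8.65, also lay below each BNS sample. Among potassium channel genes, Kcnk1, a leak channel, was at 10.54, 10.39, 10.50 and 11.16 in BNS and 11.39, 11.32, 11.21 and 11.497 in BYP, 1.63-fold higher without overlap (adjusted p = 0.135 with the block and 0.0162 without). The SNS samples, from 11.37 to 11.46, also lay above each BNS sample, and those of BYS and BYA lay from 10.8 to 11.4.

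The 98 chemosensory receptor genes were dim, with 10 called lower and 1 higher without the block and none with it. The 1 that was higher is Olr1, which is not a chemosensory receptor. Among all genes, 0.855% were called lower and 0.65% higher without the block. Differences of the 10 were from -0.61 to -0.37. In none of them were more than 2 BYP samples well above background, and in Or2n1j and Vom1r73 no BYP sample was. Or10ak14 entered the test only because all 4 BNS samples were well above background, so its call is not independent of that filter. The median of the list was -0.13 and turned to 0.16 and 0.27 under median and 75th percentile scaling, where the median of all genes was 0.03 and 0.14.

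The energy and protein machinery showed no call in either fit among 94 genes of oxidative phosphorylation, 98 of the cytosolic and 71 of the mitochondrial ribosome, 38 of the proteasome and 44 of glycolysis and the citric acid cycle. Their median differences lay between -0.10 and -0.01. Of 326 ubiquitin ligase and deubiquitinase genes, Fbxl7 and Klhl30 were called lower with the block, and without it 3 were higher and 5 lower. Of 109 cell cycle and apoptosis genes, 3 were higher without the block and 1 lower. Over all genes, 0.65% were called higher and 0.855% lower without the block. Besides Cdkn1a these were Cdkn2b, the cell cycle inhibitor p15, at 7.92, 7.81, 7.86 and 7.80 in BNS and 8.33, 8.50, 8.31 and 8.30 in BYP (adjusted p = 0.067 with the block and 0.00569 without), Ccnd1, which codes for cyclin D1, at 1.36-fold higher, and Casp6, an executioner caspase, at 1.42-fold lower. For Casp6 the SNS, BYS and BYA samples with a value also lay below each BNS sample.

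The peptides that define the arcuate nucleus overlapped between the groups. Agrp was at 13.88, 14.83, 16.02 and 14.55 in BNS and 14.35, 14.52, 15.91 and 13.76 in BYP, a difference of -0.19 ± 0.53 (adjusted p = 0.94 with the block). Pomc, the precursor of melanocortins and ACTH, was at 14.16, 14.50, 15.02 and 14.34 against 14.23, 13.98, 15.30 and 14.01 (-0.12 ± 0.33, adjusted p = 0.94). Npy, Cartpt, Kiss1, Tac3, Ghrh, Sst and Th differed by between -0.14 and 0.27, each with overlapping groups and an adjusted p of at least 0.761 with the block. In both groups replicate 3 was the highest sample for Agrp and for Pomc. Of the 28 genes of the arcuate list none was called in either fit, and the standard errors of these peptides, from 0.22 to 0.53, leave differences of that size undetected.

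**Figure D5:**
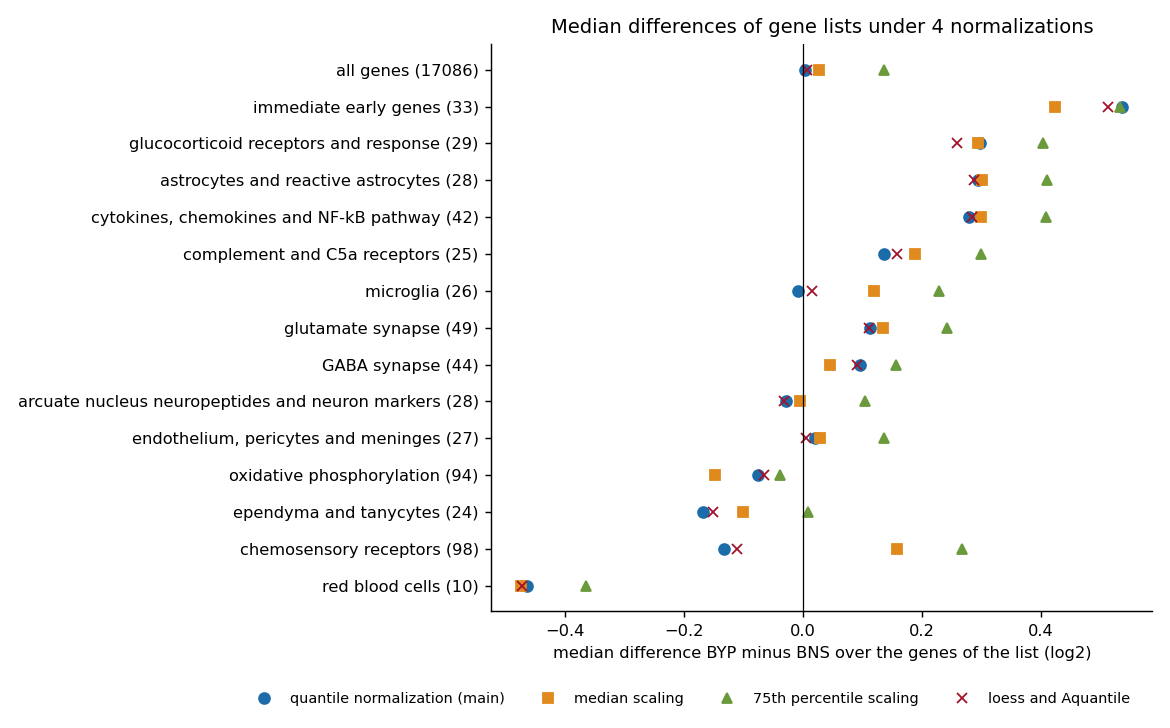
Median difference between BYP and BNS (log2, x axis) over the genes of each list (number of genes in parentheses), under 4 normalizations shown by symbol. The immediate early, glucocorticoid, astrocyte and cytokine lists lie to the right of all genes under each of them, red blood cells lie to the left, and chemosensory receptors change side between -0.13 and 0.27.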

How the data were processed

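RNA of arcuate nuclei was read on 2-colour Agilent rat arrays, with separate samples of 1 group in the Cy3 and Cy5 channels. The authors deposited scanner output, in which mean signals and median local backgrounds are intensities without normalization, and the processed signals are intensities that were background-subtracted and dye-normalized, per the file headers. Flags of the deposited files, mark spots well above background, saturated or outlying. The scanner software is given as Agilent Feature Extraction 10.7.3.1 in the labels and 11.5.1.1 in the file headers. The other series' channel on 2 arrays (82 columns) was not used, and the dye of BYA replicate 3 is uncertain. The number of arrays limits the precision.

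Each channel was taken as a sample. Background was corrected by normexp (offset 50) and log2 values of the 20 channels were brought to common quantiles. Outlier spots (1.18%) were left out. The filter required a probe to exceed background clearly, in a share of 0.5 or more of its spots, in each of the 4 samples of some group, leaving 19883 probes of 17086 genes, and 787 genes had a missing value. Probes of a gene were averaged. Accessions of 61.4% of 30367 probes matched RefSeq symbols (GRCr8 table) and the rest kept the array's name. limma 3.58.1 (R 4.3.3, statmod 1.5.0) was fitted to all 20 samples with group and dye, with the array as a random block (correlation within arrays 0.365), and Benjamini-Hochberg adjusted p-values under 0.05 were called. The same fit without the block is given beside it. "At least" folds compare the brighter mean with the higher of the dim probe's level and the lowest level well above background in each channel of the dim group. The methods were tested on simulated data.

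Named genes are those with a symbol called with the block, the 8 largest rises and 8 largest falls called without it only, with separate groups and signals well above background in all 8 samples (LOC, RGD and accession-only names left out), list members called in either fit, and C5ar1 and arcuate peptides. C5 was not among the genes tested. The members and the gene lists were chosen with earlier results of these data known. Genes added after their values were seen are marked. Results of some genes are not reported here.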

Additional observations from a re-analysis of the deposited data

Results flagged for a closer look

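Over 258 groups of 4 values, of named genes in BYP and in BNS, 14 held a sample that stood apart by Dixon's test, 5 in BYP and 9 in BNS. Chance alone flags about 1 in 20 groups. The gap was widest, as a share of the range, for Nfkbia in BYP replicate 4, at 10.33 against 11.60 to 11.64 in the other 3. In the same group, Gpr34 was high in BYP replicate 4, at 10.80, and BYP replicate 2 stood apart for Pnma2 (12.31), Csf1 (10.54) and Ccnd1 (9.99). In BNS, replicate 3 stood apart for Cfap52 (12.08), Fbxl4 (10.73), Or51b6 (8.03), Casp6 (9.74) and Ift70b (11.36). Replicate 4 did so for Mcf2l (8.58) and Vom1r73 (8.02), and replicate 1 for Fosl1 (7.17) and Arpc1b (9.97).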

How the results depend on the processing

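Against 15 genes called with the array as a block, 257 were called without the block, 24 after loess and Aquantile, 66 from the scanner's processed signals, 23 without BYA replicate 3, whose dye is uncertain, 9 without the dye term, and 28 without BYS replicates 1 and 2, an alternative chosen after seeing the data, with 20 higher and 8 lower. Calls were 0 by limma under median scaling, 75th percentile scaling and a filter for genes well above background in all 8 samples, with 237, 337 and 1297 genes at an unadjusted p under 0.05. Leaving out each BYP or BNS sample in turn left between 3 and 11 calls, a drop of more than 1.5 times for each sample but BYP replicate 4. The methods' t-test gave 2526 genes at 0.05 and 11 after Benjamini-Hochberg adjustment. Calls were 22 with an offset of 16, 21 without background correction, 16 without the filter, 13 with only the 8 samples (12 higher and 1 lower, against 4 and 11, with 4 genes shared), 13 per probe and 15 with a robust prior. The 257 calls without the block, under alternatives chosen after seeing the data, became 0 under median and 0 under 75th percentile scaling, 409 after loess (216 higher and 193 lower, against 111 and 146), 294 from processed signals, 73 when well above background in all 8 samples (48 higher and 25 lower, 70 of them among the 257), and between 72 and 261 without single samples. Of these, the counts fell to 89 without BNS replicate 1, 99 without BNS replicate 2, 89 without BNS replicate 3, 72 without BNS replicate 4 and 96 without BYP replicate 2. Ccl3 and Ccl4 passed the threshold without BYP replicate 4 but not without any other single sample, with adjusted p-values up to 0.0962 for both. The cause of these changes was not tested.

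Replicate numbers did not pair the samples (correlations of deviations 0.0824, -0.129, 0.202 and 0.0132 between same-numbered BYP and BNS samples), and with the replicate block in place of the dye 14 genes were called.

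Signs turned under another scaling for dim genes, and for Kiss1 and Ghrh. The latter were well above background in all BYP and BNS samples and differed by -0.14 and -0.07 in the main fit. Under median scaling the differences were 0.0285 for Fmo6, 0.0178 for Or10ak14, 0.0616 for Or2n1j, 0.0304 for Or51e1, 0.0814 for Or52e2 and 0.161 for Vom1r73. Under 75th percentile scaling they were 0.0427 for Fbxl7, 0.138 for Fmo6, 0.127 for Or10ak14, 0.171 for Or2n1j, 0.0488 for Or4x11, 0.0867 for Or51b6, 0.14 for Or51e1, 0.191 for Or52e2, 0.0505 for Or5h26, 0.27 for Vom1r73, 0.0766 for Kiss1 and 0.0042 for Ghrh. Without single samples, the uncalled differences of arcuate peptides ran from -0.42 to 0.0665 for Pomc, -0.653 to 0.194 for Agrp, -0.381 to 0.211 for Npy, -0.279 to 0.0709 for Kiss1, -0.21 to 0.139 for Tac3, -0.217 to 0.106 for Ghrh and -0.171 to 0.0844 for Sst.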
